A study of Mus musculus with 12 samples.

Results

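The 4 ribosome footprint libraries described here came from mouse embryonic stem cells that lacked Gcn2 and in which the termination factor eRF1 could be degraded on demand. In 2 of them the cells were untreated, and in the other 2 they had received 500 nM dTAG-13 for 1 h. They were chosen by their genotype and treatment labels from 12 libraries in all, of which 8 were footprint libraries. Every group carried the eRF1-dTAG fusion in the line ES-E14TG2a, an established feeder-free stem cell line, and was grown on gelatin in 2i + LIF medium, which holds the cells in the naive state. The other 4 footprint libraries were from cells with intact Gcn2 (called wild type here, 2 untreated and 2 treated alike), and 4 poly(A) RNA libraries were from the same wild-type cells. Poly(A) RNA of the knockout cells, vehicle-treated cells and treated cells that lack the tag were not analysed here, so that a change with dTAG-13 is a change with the compound and the loss of eRF1 together. The labels do not say how many knockout clones were used. Replicates A and B of a group are labelled biological replicates.

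Translation ends when a stop codon enters the ribosome and eRF1, with its partner eRF3, releases the finished protein, after which ABCE1 helps to split the ribosome. Without eRF1, ribosomes wait at stop codons and those behind them can run into them. The kinase Gcn2 (gene Eif2ak4) can be activated by stalled or collided ribosomes and by uncharged tRNA, and phosphorylates eIF2, which lowers initiation on most mRNAs and raises translation of Atf4. The knockout libraries therefore show how footprints were distributed after eRF1 degradation when this kinase was absent. A footprint is the mRNA fragment protected by an 80S ribosome, and a gene's value is its share of all counted footprints, in CPM (counts scaled to a common library total) after TMM scaling, a correction for differences in library composition. A share that rises does not say that more ribosomes were on that mRNA, only that it held more of the total.

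The knockout libraries held 17097802 and 16573356 counts untreated and 12333746 and 15159178 counts treated (replicates A and B). Eif2ak4 footprints, which check the genotype, were at 2.46, 2.33, 3.10 and 5.36 CPM in untreated A, untreated B, treated A and treated B, against 27.7 to 33.97 CPM in the 4 wild-type libraries. Some reads from the disrupted gene are thus counted, and treated B held the most of them. Etf1, which encodes eRF1, was at 202, 166, 228 and 214 CPM, and its change was not called (log2 change 0.26, SE 0.12, adjusted p = 0.201). Footprints of Etf1 do not measure the protein that dTAG-13 removes. Summed footprints over 28 naive pluripotency genes lay between 12762 and 14161 CPM in the 4 libraries, with none of the genes at 0. The 14 fibroblast markers summed to 27.0 to 37.6 CPM with 4 at 0, and 15 two-cell-like markers to 8.71 to 12.5 CPM with 3 at 0. Higher sums were held by 14 primitive endoderm markers (612 to 710 CPM) and 14 primed and early differentiation markers (166 to 186 CPM), with none at 0. In bulk libraries fewer cells of a type and less RNA per cell cannot be told apart. The 13 mitochondrially encoded mRNAs had no counts in any of the 4 libraries, so that only nuclear genes are described.

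After 1 h of dTAG-13, replication-dependent histone genes, ribosomal protein genes and Pnrc2 took a larger share of footprints in the knockout cells. More genes were called falling than rising. Of 12267 genes tested, 1089 were called at an adjusted p under 0.05 (8.88%), with 388 rising (3.16%) and 701 falling (5.71%). At an unadjusted p under 0.05 there were 3004 genes, beside which unadjusted counts of the lists are to be read. The changes were moderate, with a median log2 change of 0.69 among the risers and -0.74 among the fallers, and 84 rises and 131 falls exceeded 2-fold. In all 1089, both treated libraries lay on the same side of both untreated ones. Over all 12267 genes tested this held upward for 3988 and downward for 3313, so the separation adds little to the calls. Over all genes tested the median log2 change was 0.04. Scaling by library totals with no TMM factors moved that median to -0.09 and the calls to 196 rising and 1195 falling, so the balance between risers and fallers depends on the scaling and changes are read here relative to the median of all genes. Of the risers named below, Rars, Qars, Eprs, Xrn1, Xrn2, Birc6, Sec61b and Dync1h1 lost their call under library totals (adjusted p 0.055 to 0.12). Fitting the 4 knockout libraries alone gave 1893 calls. Without 1 library at a time the count fell to between 215 (without treated replicate B) and 601 (without untreated replicate B), the lone library being assumed to vary like the other groups. Calls below that were lost in any of these 4 fits are given with the library left out, mostly with the largest of their 4 adjusted p-values. The poly(A) RNA of wild-type cells, the RNA readout at hand, changed little over the same hour, with 26 of 15955 genes called (0.163%), 19 rising (0.119%) and 7 falling (0.0439%). Of the knockout risers 354 were measured there, and 1 was called, rising. Of the fallers 687 were measured, and 1 was called, rising.

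**Figure D1:**
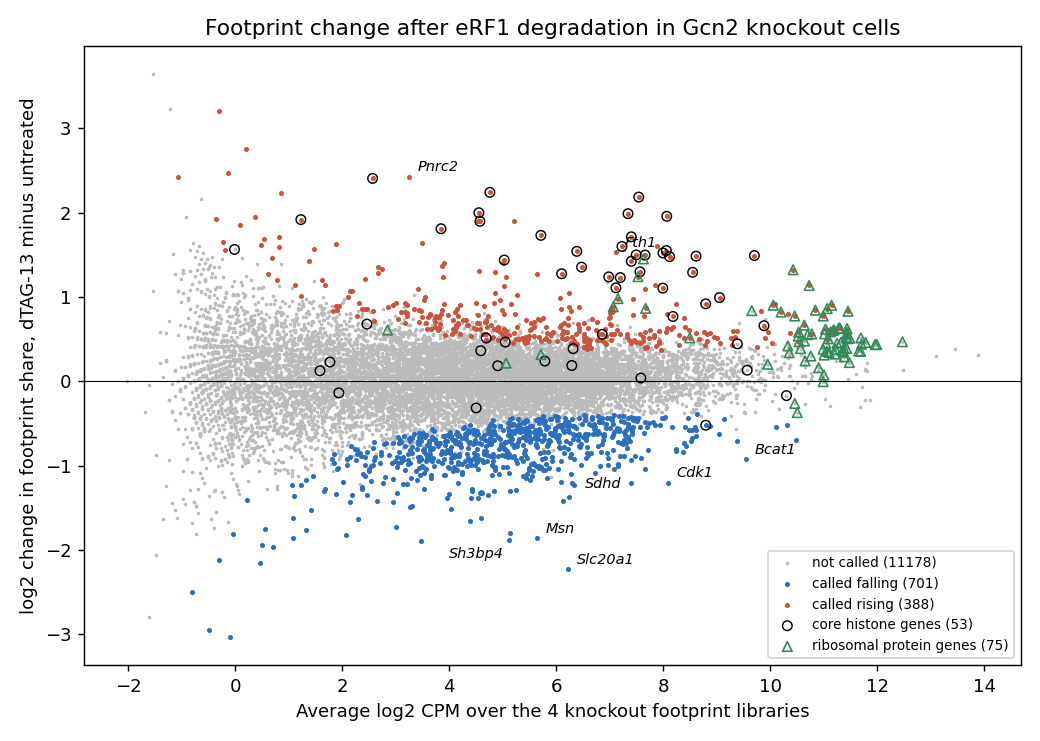
Each point is 1 of 12267 genes, with its average log2 CPM over the 4 knockout footprint libraries on the x axis and its log2 change with dTAG-13 on the y axis; red and blue points are the 388 rising and 701 falling genes, circles mark core histone genes and triangles ribosomal protein genes. Most circles lie near or above 1 on the y axis, the triangles lie at the right edge mostly between 0 and 1, and Slc20a1 is lowest among the labelled genes.

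Core histone genes had the highest median change of the lists examined. Their mRNAs are made in S phase for packaging new DNA and end in a stem-loop instead of a poly(A) tail. Of 53 tested members, 35 rose and 1 fell, with a median log2 change of 1.28 beside 0.04 over all genes. The class of H2B genes had 12 of 17 rising (median 1.55), H3 8 of 10 (median 1.33), H2A 8 of 14 (median 1.00) and H4 7 of 12 (median 0.77). Together the core histone genes held 0.743% and 0.937% of all counted footprints in untreated replicates A and B and 1.34% and 1.38% in treated A and B. The gain was therefore larger than the gap between the untreated replicates, which was itself clear. The list's median was at least 1.01 under every alternative fit run. In the wild type, 22 of the 53 rose and the median was 0.74, and no member differed between the genotypes in the test of that difference. Poly(A) selection misses most of these mRNAs, so that their RNA was measured for 25 only, with none called.

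H2bc14, an H2B gene, was at 91.6 and 128 CPM untreated and 415 and 438 CPM treated, a 3.88-fold rise (log2 change 1.96, SE 0.16, adjusted p = 6.96e-05). H2ac24, an H2A gene, was at 58.1 and 76.6 CPM untreated and 297 and 315 CPM treated (log2 change 2.18, SE 0.21, adjusted p = 0.000271). The treated values of both genes lay far above the untreated ones. H2bc12 went from 127 and 145 CPM to 406 and 390 CPM (log2 change 1.55), H2ac7 from 8.22 and 10.9 CPM to 46.3 and 44.1 CPM (2.24) and H2ac11 from 8.62 and 10.4 CPM to 37.8 and 38.1 CPM (2.00). All 5 kept their call without any 1 library. Copies of a histone class have nearly identical coding sequences, and the labels do not say how reads shared between copies were counted, so the class is better founded than the single copy. Not every histone gene moved this way. H4c14, the 1 core histone gene that fell, went from 458 and 588 CPM to 354 and 374 CPM (log2 change -0.52, adjusted p = 0.0349), and lost its call without treated replicate A (0.24). Among 5 linker histone genes, whose products bind between nucleosomes, H1f5 rose from 99.6 and 135 CPM to 338 and 374 CPM (log2 change 1.60, adjusted p = 0.000216). H1f2 went the other way, from 1732 and 1812 CPM to 1064 and 1119 CPM (log2 change -0.70, adjusted p = 0.0207, and 0.17 without treated replicate A). The 11 replacement histone genes, which make polyadenylated mRNAs outside S phase, had no call in either direction by edgeR or by DESeq2 (1 fell at an unadjusted p under 0.05) and a median of 0.23.

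The promoters of 4 of the rising core histone genes named above, those with the lowest adjusted p, are shown because these 4 genes rose together. They come from RefSeq (build GRCm38.p6, the same assembly as mm10). Each is the 110 bases before the annotated start of the gene, 5′ to 3′ on the gene's strand. Capitals mark 3 motifs where they stand on either strand, namely the CCAAT box, the TATA box in its form TATAAA and the octamer ATTTGCAT of H2B promoters. TATAAA stands in none of these 4 windows, and ATTTGCAT only in those of H2bc14 and H2bc12.
H2bc14, chr13:21721934-21722043, plus strand: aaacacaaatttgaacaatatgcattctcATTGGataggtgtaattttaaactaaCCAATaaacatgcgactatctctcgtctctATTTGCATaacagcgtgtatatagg
H2bc12, chr13:22035711-22035820, plus strand: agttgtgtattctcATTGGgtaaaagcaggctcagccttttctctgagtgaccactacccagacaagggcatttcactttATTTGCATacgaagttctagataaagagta
H2ac11, chr13:22042950-22043059, minus strand: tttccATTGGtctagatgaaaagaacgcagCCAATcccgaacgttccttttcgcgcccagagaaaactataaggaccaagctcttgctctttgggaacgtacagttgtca
H2ac24, chr13:21833476-21833585, minus strand: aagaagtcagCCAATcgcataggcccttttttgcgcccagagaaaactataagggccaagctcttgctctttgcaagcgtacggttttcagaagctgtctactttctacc
In the 300-base windows of the same table, 250 bases before to 50 after the start, CCAAT stood on either strand in 44 of 52 core histone genes (84.6%) against 41.1% of all 27025 genes, TATAAA in 57.7% against 15.7%, and ATTTGCAT in 13 of 52 against 1.97%. The octamer was in 7 of 14 H2B genes. These motifs are the usual elements of histone promoters, and the matches describe the letters in these windows.

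Ribosomal protein genes formed the second list with many risers. Their mRNAs begin with a terminal oligopyrimidine (TOP) tract, through which their translation follows nutrient and mTOR signals. Of 44 tested large subunit genes 16 rose and none fell (median log2 change 0.47), and of 31 small subunit genes 14 rose and none fell (median 0.52). The list medians stayed between 0.34 and 0.54 and between 0.39 and 0.63 under every alternative fit. Large subunit genes held 6.78% and 7.58% of counted footprints in untreated A and B and 9.25% and 9.16% in treated A and B, and small subunit genes held 5.49% and 6.19% and then 7.53% and 7.34%. In the wild type the medians were 0.03 and -0.08, with 1 gene called. Untreated wild-type A and B held 8.73% and 7.23% in large and 7.51% and 6.30% in small subunit genes. The wild-type replicates thus differed clearly before treatment, and the untreated knockout shares of small subunit genes lay below both. No single ribosomal protein gene passed the test of the difference between genotypes, and that of the lists as a whole was not tested. Ribosomal protein genes have many processed pseudogenes, whose reads the counts may include.

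Rpl12 rose most of the large subunit genes named, from 764 and 809 CPM to 1929 and 2007 CPM (log2 change 1.32, SE 0.17, adjusted p = 0.000584). Rps20, of the small subunit, rose from 1021 and 1102 CPM to 2420 and 2244 CPM (log2 change 1.14, SE 0.15, adjusted p = 0.000684), and Rpl21 from 92.7 and 99.2 CPM to 194 and 184 CPM (0.98). These 3 kept their calls in all 4 fits without a library. Rps12 went from 1396 and 1647 CPM to 2821 and 2708 CPM (log2 change 0.86), Rplp1 from 1842 and 2201 CPM to 3434 and 3751 CPM (0.83) and Rps23 from 111 and 77.9 CPM to 182 and 166 CPM (0.88). Treated and untreated values did not overlap in any of them, but their calls were lost without treated replicate A (0.063 for Rps12 and 0.083 for Rps23) or without treated replicate B (0.086 for Rplp1). Of 25 other genes with TOP mRNAs, 6 rose (24%, beside 3.16% of all genes) and none fell (median 0.22). Ybx1, an mRNA-packaging protein, rose from 603 and 698 CPM to 1141 and 1180 CPM (log2 change 0.84, adjusted p = 0.00173, held in all 4 fits), and Hnrnpa1, a splicing regulator, from 871 and 1006 CPM to 1658 and 1596 CPM (0.79; 0.11 without treated replicate A). The elongation factor subunit Eef1b2, at 1007 and 1140 CPM untreated and 1623 and 1559 CPM treated, rose by 0.57 (0.20 without treated replicate A).

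The start of the transcript, where a TOP tract lies, is shown for the called ribosomal protein genes named above whose RefSeq window holds CTTTT there. Rpl21, Rplp1 and Rps20 had no window in the reference used and could not be examined. Each sequence is 30 bases from 5 before the annotated start, with CTTTT in capitals on the sense strand.
Rpl12, chr2:32961707-32961736, plus strand: gatccgtCTTTTcggctttcggctcggagg
Rps12, chr10:23787185-23787214, minus strand: cggccaccgccggcCTTTTcccctgccgcc
Between 30 bases before and 50 after the annotated start, CTTTT stood on the sense strand in 14 of 59 ribosomal protein genes with a window (23.7%), in 15 of 52 core histone genes (28.8%) and in 9.83% of all genes, so that these letters did not set the ribosomal protein genes apart from the histone genes. The annotated starts need not be the starts used in these cells.

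**Figure D2:**
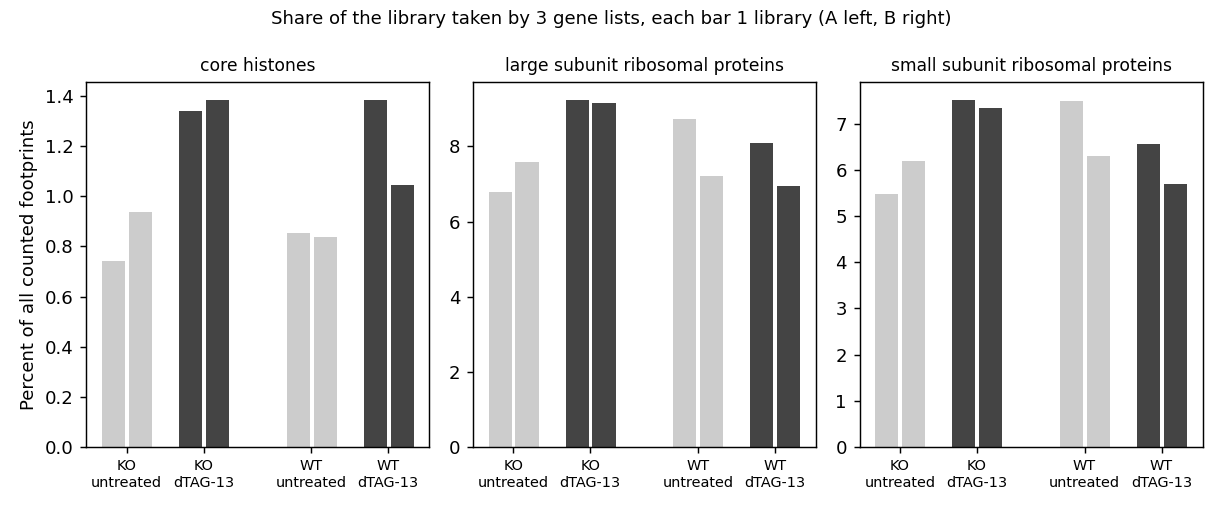
Bars give the percent of all counted footprints that fell in each of 3 gene lists (y axes, from 0) in each of the 8 footprint libraries (x axis, replicate A left and B right, KO the Gcn2 knockout, WT the wild type). In the knockout both treated bars stand above both untreated bars in all 3 panels, while in the wild type they do so for core histones only.

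Outside these lists, Pnrc2, Fth1 and the antizymes rose. Pnrc2, an adaptor of mRNA decapping (chr4:135870917-135873846), rose from 3.30 and 2.74 CPM to 15.7 and 16.8 CPM, which was 5.37-fold and the largest rise among the named genes (log2 change 2.42, SE 0.28, adjusted p = 0.000395). Fth1, the ferritin heavy chain that stores iron (chr19:9980600-9985111), rose from 70.5 and 72.3 CPM to 206 and 208 CPM (log2 change 1.53, SE 0.16, adjusted p = 0.000216). Replicates of these 2 genes lay close together and the treated values far from the untreated ones. The antizymes, inhibitors of polyamine synthesis whose mRNAs are read through a programmed frameshift, rose by smaller amounts, Oaz1 from 179 and 240 CPM to 389 and 398 CPM (log2 change 0.91, adjusted p = 0.00155) and Oaz2 from 15.5 and 22.5 CPM to 39.0 and 39.6 CPM (1.05; 0.059 without treated replicate B). Dohh, an enzyme of hypusine formation in the same list, fell from 27.6 and 36.5 CPM to 16.3 and 18.96 CPM (-0.86; 0.11 without treated replicate A).

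Selenoprotein mRNAs decode an internal UGA as selenocysteine in place of a stop. Of 21 tested, 5 rose (23.8%) and 1 fell (4.76%), beside 3.16% and 5.71% of all genes. Their median log2 change was 0.23, and 0.10 to 0.43 under the alternative fits. Selenoh rose from 112 and 175 CPM to 314 and 318 CPM (log2 change 1.14; 0.063 without treated replicate B), and Selenow from 78.4 and 113 CPM to 164 and 176 CPM (0.83; 0.16 without treated replicate B). Gpx1, a glutathione peroxidase, was at 722 and 880 CPM untreated and 1158 and 1235 CPM treated (0.58; 0.25 without treated replicate B). Txnrd1, the cytosolic thioredoxin reductase, fell from 299.3 and 275.5 CPM to 206 and 196 CPM (-0.52; 0.18 without treated replicate B). None of these 4 selenoprotein calls held in all 4 fits without a library.

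Respiratory chain subunits moved in both directions, with more called rising than falling. Of 80 tested, 10 rose and 3 fell, and at an unadjusted p under 0.05 there were 31 rises and 7 falls. The list's median log2 change was 0.12, beside 0.04 over all genes. The list's median changed sign under library totals only (-0.01), where the median over all genes was -0.09. The 10 risers were 5 of complex I, 1 of complex IV and 4 of complex V, the ATP synthase. Ndufb2 of complex I went from 66.9 and 84.6 CPM to 113 and 121 CPM (log2 change 0.63; 0.19 without treated replicate B), and Atp5mg of complex V from 209 and 248 CPM to 361 and 350 CPM (0.64; 0.098 without treated replicate A). Complex II, succinate dehydrogenase, had 2 of its 4 subunits falling and none rising. Its membrane anchor Sdhd fell from 224 and 248 CPM to 108 and 96.2 CPM (log2 change -1.21, SE 0.13, adjusted p = 0.000265, held in all 4 fits). The catalytic subunit Sdha went from 309 and 293 CPM to 233 and 216 CPM (-0.42; 0.26 without treated replicate B). Mitochondrial ribosomal protein genes had 1 riser and 6 fallers among 79 tested (7.59% falling, beside 5.71% of all genes). Mrpl42 fell from 41.1 and 38.8 CPM to 16.6 and 15.7 CPM (log2 change -1.31, adjusted p = 0.00155) and Mrpl37 from 63.2 and 74.5 CPM to 37.1 and 35.7 CPM (-0.92), both in all 4 fits.

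**Figure D3:**
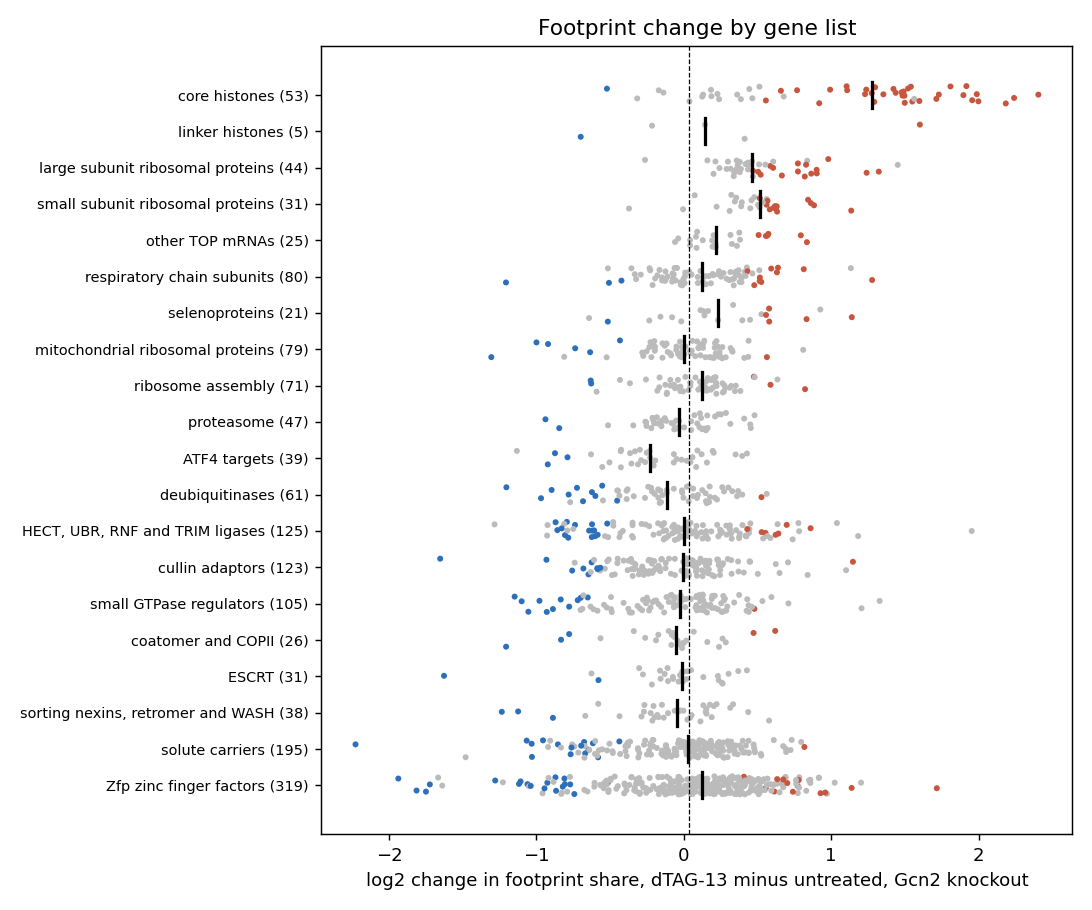
Each point is a tested gene, placed by its log2 change with dTAG-13 in the knockout (x axis) in the row of its gene list (y axis, number tested in brackets); red and blue points were called rising and falling, black bars are list medians and the dashed line is the median over all genes. Core histones lie furthest to the right, followed by the ribosomal protein lists, and the lists of regulators and transporters centre near the dashed line with blue points in their left tails.

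The fallers found in the lists had many functions. Of the 701 fallers 185 were in a list, as were 168 of the 388 risers. The lists cover only part of the genes tested, so these shares partly reflect that coverage. In the lists that follow, the shares falling and rising are to be read beside the 5.71% and 3.16% over all genes, which already hold more falls than rises. The share falling also depended on RNA level, at 1.39% in the least and 9.47% in the most abundant of 5 groups. It was 8.71% in the longest of 5 groups by genomic span. The lists were not matched for either. Slc20a1, a sodium-dependent phosphate importer (chr2:129198773-129211615), fell furthest of the named genes, from 124 and 119 CPM to 22.3 and 29.6 CPM, a 4.68-fold fall (log2 change -2.23, SE 0.17, adjusted p = 5.91e-05). Among 195 tested solute carriers, membrane transporters of many substrates, 15 fell (7.69%) and 1 rose (0.513%), and the list's median changed sign between alternative fits. Slc45a4 fell from 74.97 and 62.3 CPM to 33.2 and 34.01 CPM (log2 change -1.03, adjusted p = 0.000839). Slc16a3, the lactate exporter MCT4, fell from 90.6 and 90.1 CPM to 46.2 and 53.7 CPM (-0.85; 0.055 without treated replicate A). The 1 riser, the nucleoside transporter family member Slc29a4, went from 6.601 and 6.41 CPM to 11.3 and 11.7 CPM (0.82; 0.18 without treated replicate B). Sh3bp4, a protein of endocytosis and amino acid signalling, stood beside Slc20a1 in size, falling from 48.8 and 58.8 CPM to 14.3 and 14.9 CPM (log2 change -1.88, SE 0.15, adjusted p = 5.91e-05). Slc20a1, Slc45a4 and Sh3bp4 kept their calls in all 4 fits.

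Among 31 ESCRT genes, which sort ubiquitinated cargo into endosomes, 2 fell (6.45%), and among 38 genes of sorting nexins, retromer and the WASH complex, 3 fell (7.89%), with none rising in either list. These shares falling were near that of all genes, and the single genes are described for their own values. Ubap1, an ESCRT-I subunit, fell from 35.7 and 36.3 CPM to 11.6 and 11.7 CPM (log2 change -1.63, SE 0.14, adjusted p = 6.96e-05). Washc5, of the actin-nucleating WASH complex on endosomes, fell from 116 and 108 CPM to 48.4 and 46.9 CPM (log2 change -1.23, SE 0.12, adjusted p = 0.000186), and Vps26c, of the retriever recycling complex, from 67.0 and 60.3 CPM to 31.5 and 27.0 CPM (-1.12). Replicates of these genes differed by far less than the treatment groups. Of 26 coatomer, COPII and translocon genes, 3 fell (11.5%) and 2 rose (7.69%). All 3 fallers act in the budding of COPII-coated vesicles from the endoplasmic reticulum. They were Sec24a (122 and 95.8 CPM to 48.1 and 46.4 CPM, log2 change -1.21), Sec16a (106 and 112 CPM to 63.2 and 64.0 CPM, -0.78) and Sec23a (162 and 131 CPM to 82.6 and 81.8 CPM, -0.83). Sec23a lost its call without treated replicate B, and its log2 change was -0.98 to -0.67 over the 4 fits without a library. The risers were the small translocon subunits Sec61g (0.62; 0.17 without treated replicate A) and Sec61b (0.47; 0.29 without treated replicate B). No gene of 51 RAB GTPases was called by edgeR, and DESeq2 called 1 in each direction. By edgeR 8 had an unadjusted p under 0.05, beside 3004 of all 12267 genes.

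Ubiquitin enzymes were examined in 3 lists. Of 61 deubiquitinases 10 fell (16.4%) and 1 rose (1.64%), with a median log2 change of -0.12. Of 125 HECT, UBR, RNF and TRIM ligases 15 fell (12%) and 7 rose (5.60%). Of 123 cullins and their adaptors 9 fell (7.32%, near the share of all genes) and 1 rose (0.813%). Usp8, a deubiquitinase of endosomes, fell from 66.9 and 57.8 CPM to 33.2 and 30.6 CPM (log2 change -0.97, adjusted p = 0.0014). The ligase Herc4 fell from 88.3 and 90.1 CPM to 51.9 and 51.7 CPM (-0.78). Kbtbd2, a cullin-3 adaptor that controls a subunit of phosphoinositide 3-kinase, fell from 35.7 and 26.5 CPM to 10.3 and 9.48 CPM (-1.65, adjusted p = 0.000453). All 3 held in every fit without a library. Cul1, the scaffold of SCF ligases, fell from 213 and 200 CPM to 138 and 129 CPM (-0.63; 0.079 without treated replicate B). The risers of these lists include giant ligases. Rnf213 rose from 48.1 and 48.4 CPM to 78.9 and 96.3 CPM (0.86; 0.070 without treated replicate B) and Birc6 from 279 and 255 CPM to 395 and 437 CPM (0.64; 0.25 without treated replicate B).

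Mdn1, Dync1h1, Tpr and Vcl rose as well. Mdn1, a giant ATPase of ribosome assembly, went from 101 and 90.5 CPM to 150 and 189 CPM (log2 change 0.82; 0.14 without treated replicate B), Dync1h1, the motor chain of cytoplasmic dynein, from 145 and 112 CPM to 175 and 206 CPM (0.56; 0.35 without treated replicate B), and Tpr, of the nuclear basket, from 112 and 85.7 CPM to 152 and 166 CPM (0.68; 0.14 without treated replicate B). Vcl, the focal adhesion protein vinculin, rose from 94.6 and 95.5 CPM to 152 and 166 CPM (0.74; 0.055 without treated replicate B). In the wild type all 4 rose, by 1.13, 1.12, 0.97 and 1.11. These 4 were chosen after their values were seen.

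Kinases, phosphatases and regulators of small GTPases were also examined by list. Of 9 casein kinases 3 fell and none rose, led by the membrane-anchored Csnk1g1, which went from 18.7 and 14.7 CPM to 3.78 and 5.15 CPM (log2 change -1.89, SE 0.21, adjusted p = 0.000336). Csnk1a1, a kinase of the beta-catenin destruction complex, fell from 232 and 210 CPM to 120 and 113 CPM (-0.93, adjusted p = 0.000925). Of 105 regulators of small GTPases 11 fell (10.5%) and 1 rose (0.952%). Arhgap5 (85.0 and 69.5 CPM to 39.6 and 30.4 CPM, log2 change -1.15) and Arhgap35 (66.8 and 60.2 CPM to 29.5 and 34.8 CPM, -0.98), a pair of related GTPase activators, both fell, as did the RAC activator Dock5 (57.7 and 61.1 CPM to 26.7 and 28.7 CPM, -1.10). Of 47 phosphoinositide enzymes 6 fell (12.8%) and 1 rose (2.13%), and of 59 protein phosphatase subunits 5 fell (8.47%) and 2 rose (3.39%). Pik3c2a fell from 56.7 and 51.1 CPM to 30.1 and 31.1 CPM (-0.82), Ppp4r3b from 72.0 and 52.9 CPM to 28.6 and 26.8 CPM (-1.18) and the calcineurin catalytic subunit Ppp3cb from 58.0 and 47.2 CPM to 27.7 and 28.2 CPM (-0.91). All 8 genes named here kept their calls in the 4 fits.

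In the cytoskeleton list, 62 genes tested, 3 rose and 3 fell. Its largest fall was that of Msn, moesin, which ties actin to the plasma membrane (chrX:96096045-96168553), from 81.5 and 72.8 CPM to 22.1 and 20.5 CPM (log2 change -1.86, SE 0.19, adjusted p = 0.000252). Cald1, the actin regulator caldesmon, fell from 121 and 120 CPM to 70.1 and 70.2 CPM (-0.78, adjusted p = 0.000925). Both calls held in all 4 fits.

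Lists of cell cycle, nuclear transport and gene control genes held single genes with clear changes. Of 50 cyclins, cyclin-dependent kinases and mitotic kinases, 5 fell (10%) and 2 rose (4%). Cdk1, the kinase that drives entry into mitosis, fell from 377 and 376 CPM to 177 and 151 CPM (log2 change -1.20, SE 0.12, adjusted p = 0.000216). Ccnl1, a cyclin linked to splicing, rose from 13.7 ± 0.94 CPM to 33.9 ± 0.56 CPM (SD, n = 2 in each group; log2 change 1.31, edgeR adjusted p = 0.000909). Of 51 nuclear pore and transport genes 7 fell (13.7%) and 3 rose (5.88%). The import adaptor Kpna6 fell from 102 and 99.6 CPM to 42.1 and 33.3 CPM (-1.42, adjusted p = 0.000216) and the nucleoporin Nup50 from 75.1 and 72.8 CPM to 39.8 and 42.5 CPM (-0.84). Among 96 chromatin genes, 6 fell (6.25%) and 5 rose (5.21%), shares near those of all genes, the fallers including the acetyltransferase Crebbp (184 and 186 CPM to 113 and 110 CPM, -0.73) and Setd5 (180 and 147 CPM to 87.9 and 86.6 CPM, -0.91). Of 319 Zfp zinc finger genes 19 fell (5.96%) and 13 rose (4.08%), again near the shares of all genes. Zfp740 fell from 11.4 and 12.1 CPM to 2.92 and 4.12 CPM (-1.72) and Zfp639 from 16.5 and 15.1 CPM to 5.50 and 7.42 CPM (-1.28). All 8 genes named in this paragraph kept their calls in the 4 fits.

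In RNA decay, Cnot1 fell while the exonucleases Xrn1 and Xrn2 rose. Of 37 deadenylation and decapping genes 4 fell and 3 rose. Cnot1, the scaffold of the CCR4-NOT deadenylase, fell from 837 and 810 CPM to 496 and 515 CPM (-0.70, adjusted p = 0.00193; 0.050 without treated replicate A). Xrn1 and Xrn2, the 5′ to 3′ exonucleases of cytoplasm and nucleus, went from 41.1 and 32.4 CPM to 52.8 and 51.2 CPM and from 223 and 184 CPM to 285 and 273 CPM (log2 changes 0.50 and 0.46; 0.31 and 0.30 without treated replicate A).

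Enzymes of metabolism were examined in 3 lists. Of 26 nucleotide synthesis genes 4 fell and 1 rose. Atic, which catalyses the last steps to IMP, fell from 234 and 265 CPM to 139 and 126 CPM (log2 change -0.91, SE 0.12, adjusted p = 0.000684, held in all 4 fits). Prps2, which makes the ribose donor PRPP, fell from 15.8 and 12.1 CPM to 5.50 and 4.60 CPM (-1.47; 0.067 without treated replicate B). Of 19 glycolysis genes 3 fell and 1 rose. Ldhb, a lactate dehydrogenase subunit, fell from 205 and 194 CPM to 125 and 126 CPM (-0.67, adjusted p = 0.00195, held in all 4 fits), and Gapdh, which has many pseudogenes, rose from 103 and 116 CPM to 162 and 160 CPM (0.56; 0.14 without treated replicate B). Of 28 cholesterol synthesis genes 3 fell and 1 rose, and the paralogs Insig1 and Insig2, which hold the sterol-sensing machinery in the endoplasmic reticulum, moved oppositely. Insig1 rose from 176 and 218 CPM to 335 and 350 CPM (0.80; 0.051 without treated replicate B), and Insig2 fell from 8.28 and 6.88 CPM to 4.13 and 3.50 CPM (-0.996; 0.17 without treated replicate B).

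Genes of the integrated stress response, which Gcn2 feeds, moved in both directions in the knockout. Atf4, its transcription factor, was at 79.4 and 78.3 CPM untreated and 92.2 and 103 CPM treated (log2 change 0.30, SE 0.15, adjusted p = 0.247). Of 18 tested mRNAs listed for control by upstream open reading frames in stress, Atf4 among them, 4 rose (22.2%) and 3 fell (16.7%). Their median was 0.19 (0.06 to 0.28 under the alternative fits). The reading frames themselves were not examined, and Fth1 in particular may not belong in this list. The 4 risers were Pnrc2 (2.42), Fth1 (1.53), Ppp1r15a (0.84) and Eprs (0.51), and the fallers included Ibtk (-1.80) and Ppp1r15b (-0.90). Of 39 known ATF4 target genes 3 fell and none rose, with a median of -0.23 (-0.35 to -0.15 under the alternative fits). Bcat1, a branched-chain aminotransferase, fell from 950 and 1008 CPM to 513 and 520 CPM (log2 change -0.92, SE 0.14, adjusted p = 0.00155). Xpot, the tRNA exporter, fell from 120 and 130 CPM to 71.7 and 64.9 CPM (-0.87, adjusted p = 0.00066), and Aldh18a1, of proline synthesis, from 84.4 ± 7.9 CPM to 48.8 ± 1.9 CPM (SD, n = 2 in each group; log2 change -0.79; 0.17 without treated replicate A). Of 22 aminoacyl-tRNA synthetase genes, Yars fell from 278 and 266 CPM to 138 and 126 CPM (-1.04, adjusted p = 0.0012), whereas Rars, Qars and Eprs rose by 0.52, 0.55 and 0.51 (0.19 and 0.20 without treated replicate A and 0.33 without treated replicate B). The eIF2 phosphatase subunits moved apart. Ppp1r15b, the constitutive one, fell from 105 and 95.0 CPM to 52.6 and 54.1 CPM (-0.90, adjusted p = 0.00104), and Ppp1r15a, the inducible one, went from 7.78 and 7.64 CPM to 15.1 and 12.6 CPM (0.84; 0.23 without treated replicate A). Eif2b2, a subunit of the eIF2 exchange factor, fell from 66.0 and 74.3 CPM to 35.4 and 34.1 CPM (-1.01, adjusted p = 0.000584). Bcat1, Xpot, Yars, Ppp1r15b and Eif2b2 kept their calls in all 4 fits.

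Of 11 termination and recycling genes 1 was called. That gene, Eif2d, which acts in reinitiation and ribosome recycling, fell from 69.3 and 78.5 CPM to 34.1 and 36.9 CPM (log2 change -1.05, SE 0.14, adjusted p = 0.000776, held in all 4 fits). Gspt1, which encodes eRF3, was at 184 and 150 CPM untreated and 217 and 193 CPM treated, with no call (0.29, adjusted p = 0.23). Pelo, the rescue factor for stalled ribosomes, was at 32.0 ± 0.77 CPM untreated and 35.6 ± 0.80 CPM treated (SD, n = 2 in each group; log2 change 0.15, adjusted p = 0.519). Its partner Hbs1l fell from 68.7 and 62.1 CPM to 38.9 and 41.0 CPM (-0.71; 0.069 without treated replicate A). Of the 33 rescue and quality control genes 4 rose and 2 fell, the risers including Edf1, a sensor of collided ribosomes, which went from 94.5 and 106 CPM to 164 and 155 CPM (0.67; 0.084 without treated replicate A).

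Some of the largest changes fell outside the lists described above. Cab39l, a scaffold of the kinase LKB1, rose from 5.76 and 5.30 CPM to 18.5 and 16.1 CPM (log2 change 1.64, adjusted p = 0.000366). The palmitoyltransferase Zdhhc3, from a list of 19 with 3 rising and 2 falling, rose from 8.56 and 7.87 CPM to 18.9 and 24.6 CPM (1.41, adjusted p = 0.000776). R3hdm1, an RNA-binding protein gene, fell from 23.7 and 23.5 CPM to 7.14 and 9.28 CPM (-1.52, adjusted p = 0.000336). The stress-responsive transcription factor Atf2 fell from 36.03 and 29.8 CPM to 12.04 and 13.1 CPM (-1.39, adjusted p = 0.000271). Ppip5k2, which makes inositol pyrophosphates, fell from 30.04 and 30.08 CPM to 11.4 and 11.7 CPM (-1.38, adjusted p = 0.000336), and the J-domain protein Dnajc17 from 21.5 and 22.4 CPM to 9.55 and 7.42 CPM (-1.38, adjusted p = 0.00138). All 6 held in the 4 fits.

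**Figure D4:**
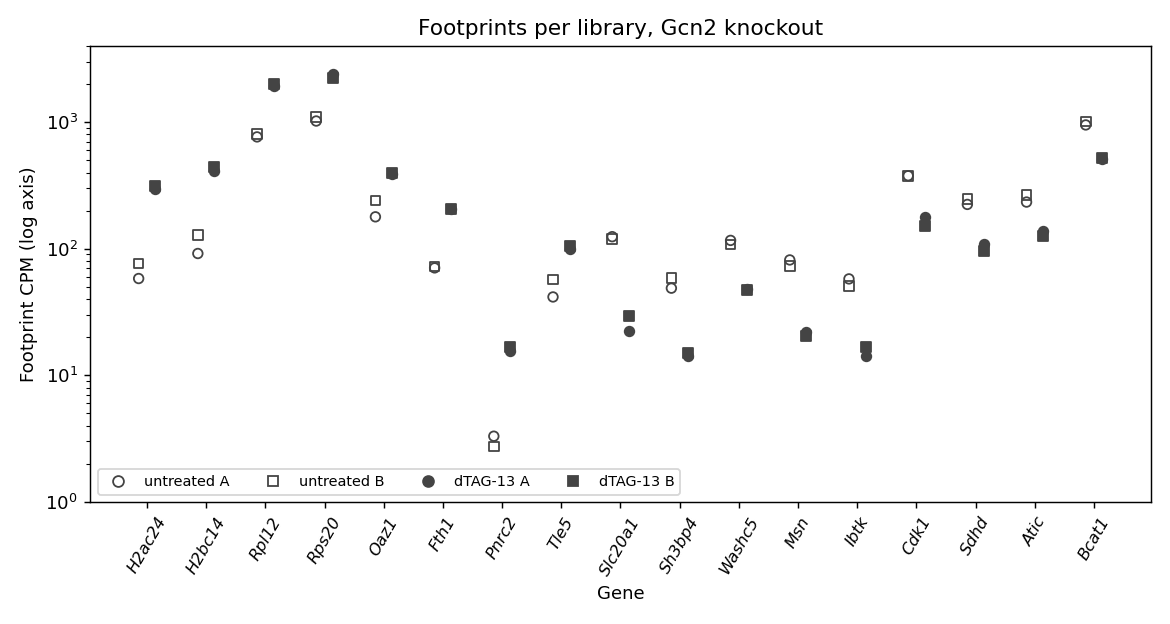
Footprint CPM (y axis, log scale) of 17 genes named in the text (x axis) in the 4 knockout libraries, with open symbols untreated, filled symbols treated, circles replicate A and squares replicate B. In each gene both filled symbols lie to one side of both open ones, above them from H2ac24 to Tle5 and below them from Slc20a1 to Bcat1.

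The wild-type libraries, which share none of the knockout samples, were set beside these changes in the same fit. There 4.88% of the genes were called, 361 rising (2.94%) and 238 falling (1.94%). Of the 388 knockout risers, 336 had a positive change in the wild type and 113 were also called rising there. Of the 701 fallers, 645 had a negative change and 153 were also called falling, and 2 of the 1089 were called in opposite directions. The medians in the wild type were 0.41 for the knockout risers and -0.35 for the fallers, smaller than the 0.69 and -0.74 that had chosen them in the knockout. Across all 12267 genes, which are not independent replicates, the Spearman correlation of the changes was 0.44. Slc20a1, Sh3bp4, Ubap1, Washc5, H2bc14 and Eif2d were among those called alike in both genotypes, with wild-type changes of -1.70, -1.30, -0.94, -0.88, 1.59 and -1.05.

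The change itself differed between genotypes for 6 genes (0.0489% of those tested), higher in the knockout for 2 (0.0163%) and lower for 4 (0.0326%), while 1229 genes had an unadjusted p under 0.05 for that difference. Atf4 was lower in the knockout by 1.71, having risen in the wild type from 81.3 and 70.7 CPM to 361 and 255 CPM (log2 change 2.02, adjusted p of the difference 0.0165). Msn (difference -2.04) and Ibtk (-1.61), both at an adjusted p of 0.0165, and Atic (-1.16, adjusted p = 0.0222) fell in the knockout and had wild-type changes of 0.18, -0.19 and 0.25, none called. Ibtk, a BTB protein that inhibits Bruton kinase and binds CUL3, went from 57.7 and 50.5 CPM to 14.3 and 16.6 CPM in the knockout. Fth1 (difference 1.57) and Tle5 (1.51), both at 0.0222, rose in the knockout and had wild-type changes of -0.04 and -0.46, neither called. Tle5, a short member of the Groucho corepressors that lacks their WD repeats, went from 41.6 and 57.3 CPM to 98.7 and 106 CPM (log2 change 1.05, adjusted p = 0.00133) and was the 1 gene called of 6 in its family. No gene was called for this difference by edgeR when any single knockout library was left out (0 calls in each of the 4 fits, with 658 to 1561 genes at an unadjusted p under 0.05), and DESeq2 called 116 genes for it over all 8 libraries. For all other genes named here a difference between the genotypes was not shown.

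**Figure D5:**
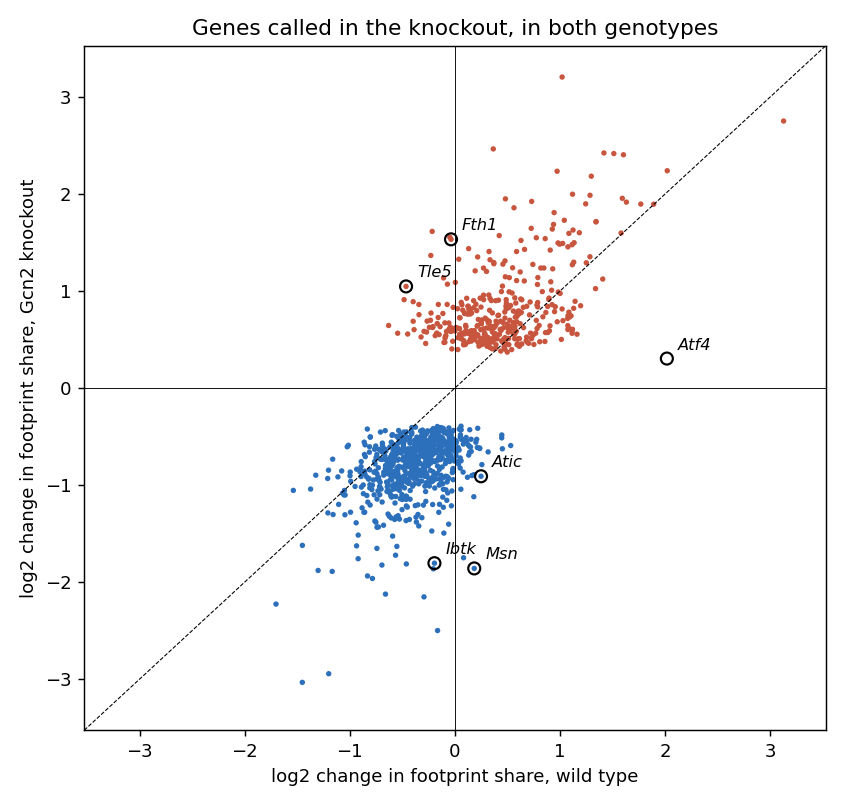
Log2 change with dTAG-13 in the wild type (x axis) against that in the Gcn2 knockout (y axis) for the 388 rising (red) and 701 falling (blue) knockout genes; black circles mark the 6 genes whose change differed between genotypes, of which Atf4 was not called in the knockout. Most points lie in the lower left and upper right quadrants. The median change of the risers was 0.69 in the knockout and 0.41 in the wild type. For the fallers it was -0.74 and -0.35. The dashed line marks equal change.

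Genomic span and RNA level were also set against the changes. In groups of about 2411 genes by genomic span (RefSeq, GRCm38.p6), the median log2 change was 0.10, 0.07, 0.04, 0.01 and -0.04 from the shortest to the longest genes. Risers made up 6.26% of the shortest group and 1.99% of the longest, and fallers 2.61% and 8.71%. With core histone, linker histone and ribosomal protein genes left out, the shortest group of 2287 genes held 91 risers and 61 fallers and had a median of 0.08. The Spearman correlation of span with change was -0.14 over 12052 genes, and 0.03 for the wild-type change. It was -0.03 without untreated replicate A and -0.22 without untreated replicate B, so that most of it came with untreated replicate A. In 5 groups by wild-type RNA level the medians lay between 0.01 and 0.05 with no order. Risers made up 1.82% and fallers 1.39% of the least abundant group, and 5.51% and 9.47% of the most abundant, where counts are higher.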

How the data were processed

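Footprints from RNase I digested lysates, taken from 80S monosomes, were sequenced, and the authors deposited whole-number read counts per gene symbol. Per the submitters' processing notes, cutadapt, HISAT2 2.1.0 and CASAVA 1.4 were used with build mm10; for the counting tool, the part of a gene counted and multiply mapped reads, the sources used here give nothing. Columns were matched to samples by their labels; for treated knockout replicate B the title's letter decided, since its description carries replicate A's column name. The members and gene lists were chosen with earlier results of these data known, so list counts describe and support nothing independently.

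Counts of the 8 footprint libraries were fitted by group with edgeR 4.0.16 (R 4.3.3): filterByExpr with a minimum count of 10, TMM, robust quasi-likelihood F test, Benjamini-Hochberg adjustment over all 12267 genes, called under 0.05, 4 residual degrees of freedom. The contrast of the 2 genotypes' changes came from the same fit; the wild-type RNA was fitted apart. Of 22034 symbols, 5553 had no count. The fit was tested on simulated data. DESeq2 1.42.0, other scalings, no filter, blocks and leaving out each library were the alternatives. With 2 libraries a group, p-values measure the spread between these libraries.

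Named genes were the 15 largest rises and falls among called genes with non-overlapping groups and an average log2 CPM of at least 3 (at most 3 of a list, predicted genes left out), up to 3 called genes per list and direction by adjusted p, genes called between genotypes, and Etf1, Eif2ak4, Atf4, Gspt1, Abce1, Pelo, Slc20a1 and Pnrc2; not all are reported here. Coding length and stop codon windows, planned, could not be had from the reference tables used here; genomic span and promoter windows replaced them and were chosen after seeing the data.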

Additional observations from a re-analysis of the deposited data

Results flagged for a closer look

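The change with dTAG-13 differed between the knockout and the wild type for 6 genes in the interaction test. The knockout change was lower than the wild-type change, on the log2 scale, by 1.71 for Atf4 (knockout minus wild type -1.71, SE 0.22), and the differences were -2.04 for Msn (SE 0.26), -1.61 for Ibtk (SE 0.21) and -1.16 for Atic (SE 0.17). It was higher for Fth1 (difference 1.57, SE 0.22) and for Tle5 (1.51, SE 0.22). In Msn, Ibtk, Atic, Fth1 and Tle5 both treated knockout libraries lay outside the range of the 4 wild-type libraries, and in Atf4 both treated wild-type libraries lay above all 4 knockout libraries. The 6 genes were chosen by a test on these libraries, so this separation of levels is no further support for a difference in change. None of the 6 was called for this difference without any single knockout library, and the RNA of these genes in wild-type cells changed by no more than 0.14 on the log2 scale.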

How the results depend on the processing

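The 1089 calls within the knockout became 1893 with its 4 libraries fitted alone, 1658 with no filter on low counts, and between 215 and 601 without 1 library; library totals, RLE factors, TMM factors without ribosomal protein and histone genes, and DESeq2 gave 1391, 1098, 1118 and 1192. The 6 calls for the difference between genotypes became 116 with DESeq2, 192 with no filter, 0 without any 1 knockout library and 3 to 32 without 1 wild-type library. Replicate letters are not named as a shared batch and there are only 2 a genotype, so they are not taken to pair the samples. The replicate block over all 8 libraries gave 1564 calls, and 39 for the difference. The replicate block within genotype gave 3149 calls (1630 rising and 1519 falling, 51.8% rising against 35.6%) and 733 for the difference, and a replicate block over the 4 knockout libraries alone, chosen after seeing the data, gave 2640. Deviations of A from B in the untreated and treated knockout correlated at r = 0.10 across genes, which are not independent, and those in the wild type, which enters the difference between genotypes, at r = 0.49. All 107 called genes named in the text kept their call with the knockout libraries alone, 62 kept it without any 1 library, 34 in 1 to 3 of those 4 fits and 11 in none, and none changed direction in any fit. Pole lost its call under library totals (adjusted p 0.099). Under RLE factors and under TMM without ribosomal protein and histone genes Xrn1 also lost its call (adjusted p 0.052 and 0.051). Eif2ak4 passed the threshold under DESeq2 (0.038), with no filter (0.019) and with the replicate block (0.041), and Etf1 (0.037), Atf4 (0.028) and Gspt1 (0.030) with the replicate block within genotype. Of 62 list medians, 35 changed sign in at least 1 setting, 24 of them under library totals, and no direction is read from these. Planned correlations with coding length were not run. With 12333746 to 17097802 counts a knockout library and a common biological coefficient of variation of 0.116, small changes of genes with few counts were not detectable.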

Other observations

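Several gene lists had few calls in the knockout. Of 26 genes of endoplasmic reticulum chaperones and the unfolded protein response none was called by edgeR and 1 by DESeq2. By edgeR 2 had an unadjusted p under 0.05, beside 3004 of all 12267 genes. The list's median log2 change was -0.02 and became 0.25 without untreated replicate A, which gave the list 1.31% of counted footprints against 0.861% in untreated replicate B. Of 47 proteasome genes 2 fell, both encoding assembly factors. Psmg1 went from 126 and 117 CPM to 70.2 and 65.2 CPM (log2 change -0.84, adjusted p = 0.000925, held without any 1 library), and Psmd10 from 27.2 and 31.6 CPM to 14.5 and 16.1 CPM (-0.94, adjusted p = 0.00323, and 0.059 without treated replicate A). Of 54 DNA replication genes, which like the core histones serve S phase, 1 was called by edgeR (DESeq2 called 1 rising and 4 falling), the polymerase subunit Pole (0.46, adjusted p = 0.0295, and 0.069 to 0.28 without 1 library). Of 28 naive pluripotency genes 1 was called, the demethylase Tet2, which fell from 534 and 427 CPM to 319 and 294 CPM (-0.65, adjusted p = 0.0159, and 0.17 without treated replicate B).

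Untreated knockout replicates differed more from each other than treated ones. The standard deviation of the log2 ratio of A to B over the 12267 genes was 0.348 untreated and 0.286 treated.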
